A study of Mus musculus with 16 samples.

Results

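Lrrc32 and Ltbp1 encode 2 proteins that hold TGF-beta in its latent form, and their input RNA differed between WT and Adap-/- peritoneal macrophages (PMs) in opposite directions. Lrrc32 was lower in Adap-/- than in WT PMs, most of all after LPS, and Ltbp1 was higher in Adap-/- than in WT PMs with and without LPS. These are 2 genes of the 4943 with a listed peak, and they hold 4 of the 7069 distinct peaks. Both genes were selected on this opposite genotype difference, so it is given below as a description with no test.

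TGF-beta is secreted bound to its own propeptide, which keeps it from its receptors until integrins, proteases or other proteins release it. LRRC32, also called GARP, tethers the latent complex to the cell surface and is best known from regulatory T cells and platelets, while NRROS does the same in macrophages and microglia. LTBP1 is a secreted protein that binds the latent complex and anchors it to fibrillin and fibronectin in the matrix, where integrins can pull on it. N6-methyladenosine (m6A) is a methyl mark on adenosines in mRNA that is often found in long exons and near stop codons.

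PMs were collected from the peritoneal cavity of WT and Adap-/- mice 3 days after injection of 3% thioglycolate, cultured, and given 1 µg/ml LPS for 6 h or mock treatment. Per the study's methods, the mice were young adult, sex-matched littermates on the C57BL/6 background. Adap-/- mice lack ADAP, an adaptor protein encoded by Fyb1, in all their cells, and thioglycolate exposure was shared by all 4 groups. RNA was fragmented to about 100 nt and divided into an input library and an m6A antibody library (IP), with 2 replicates per group and 16 libraries in all.

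The genotype was checked on Fyb1. Its normalized input CPM, reads scaled to a fixed library total, was 243 and 257 in WT mock PMs, 349 and 377 in WT LPS PMs, 46.7 and 36.9 in Adap-/- mock PMs, and 41.5 and 35.7 in Adap-/- LPS PMs. The deleted part of the gene is not given in the sources used here. Of 10 macrophage markers, 7 had a peak (Adgre1, Csf1r, Lyz2, Cd68, Mertk, Fcgr1 and Cd14), and their summed level was 8719 to 10603 CPM over the 8 input libraries. Of these, Fcgr1 (log2 −1.28, adjusted p = 0.000205) and Mertk (−0.32, adjusted p = 0.0370) were lower and Cd14 (0.49, adjusted p = 0.0193) was higher in Adap-/- than in WT PMs after LPS, and none passed the test in mock. Total reads on peaks were 2121313 to 4325961 in input and 5728590 to 19030373 in IP libraries. Replicates of a group had a Spearman correlation over peaks of 0.982 to 0.987 in input, but of only 0.855 in WT mock IP and 0.875 in Adap-/- mock IP. On the 354 peaks that LPS raised by more than 4 on the log2 scale, WT mock IP replicate 1 had 17.8% and Adap-/- mock IP replicate 2 had 14.6% of the level in LPS input, against 1.28% and 1.81% in the other mock IP libraries of the 2 genotypes. The LPS IP libraries had 22.0% to 28.2% there. On 130 peaks that LPS lowered, the same 2 mock IP libraries had 60.5% and 48.5% of the level in mock input. The other mock IP libraries had 72.0% and 59.8%, and the LPS IP libraries 5.21% to 14.5%. WT mock IP replicate 1 and Adap-/- mock IP replicate 2 therefore went against their mock label on the raised peaks but not on the lowered ones. The main fitted IP-to-input ratios that rest on them are given with and without them. Other values that rest on them, such as the mock differences in IP, are given with them only.

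Ltbp1 (ENSMUSG00000001870) lies on the plus strand of chromosome 17, at chr17:75312563-75698762. Its single peak, chr17:75697709-75697784, covers the stop codon and the start of the 3'UTR. Lrrc32 (ENSMUSG00000090958) lies on the plus strand of chromosome 7, at chr7:98138904-98151388, with 3 peaks. The upstream peak, chr7:98147850-98147950, and the downstream peak, chr7:98148250-98148525, are both in the coding sequence (CDS), and the third, chr7:98149575-98149700, is in the 3'UTR. Coordinates are those of the deposited table, for which the submitters' processing notes name GRCm39. None of the 4 peaks was annotated to another gene, so no read was shared. A gene's input level below is the sum over its peaks, since reads outside peaks were not in the table.

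Lrrc32 input was highest in WT LPS PMs. It was 42.6 and 35.8 CPM in WT LPS PMs (39.2 ± 4.79, SD, n = 2) and 18.4 and 12.1 CPM in WT mock PMs (15.3 ± 4.45, SD, n = 2). In Adap-/- PMs it was 8.18 and 9.84 CPM after LPS (9.01 ± 1.17, SD, n = 2) and 6.04 and 12.1 CPM in mock (9.08 ± 4.31, SD, n = 2). Both WT LPS libraries were above every other library, whereas the WT mock and Adap-/- mock ranges overlapped, and so did those of Adap-/- mock and Adap-/- LPS. These levels rest on 99 to 137 reads in the WT LPS libraries and 23 to 50 reads in the 4 Adap-/- libraries.

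The Adap-/- to WT difference of Lrrc32 was a log2 fold change of −2.13 ± 0.30 (SE) after LPS, a 4.38-fold lower level and the 5th lowest of the 4742 genes tested. In mock PMs it was −0.74 ± 0.31 (SE), the 183rd lowest. The mock value moved to −0.33 without Adap-/- mock replicate 1, −1.33 without Adap-/- mock replicate 2 and −0.40 without WT mock replicate 1. After LPS, leaving out any single library gave −2.26 to −1.99.

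Ltbp1 input was higher in Adap-/- than in WT PMs. It was 9.02 and 16 CPM in Adap-/- LPS PMs (12.5 ± 4.96, SD, n = 2) and 9.45 and 11.6 CPM in Adap-/- mock PMs (10.5 ± 1.56, SD, n = 2). In WT PMs it was 2.8 and 5.06 CPM after LPS (3.93 ± 1.60, SD, n = 2) and 1.53 and 1.62 CPM in mock (1.58 ± 0.0579, SD, n = 2). All 4 Adap-/- libraries were above all 4 WT libraries, and within Adap-/- PMs the LPS and mock ranges overlapped. The counts behind these levels were 6 reads in each WT mock library, 9 and 14 in WT LPS, and 32 to 48 in the Adap-/- libraries.

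The Adap-/- to WT difference of Ltbp1 was a log2 fold change of 2.72 ± 0.45 (SE) in mock PMs, a 6.59-fold higher level and the 7th highest of the 4742 genes. After LPS it was 1.66 ± 0.41 (SE), or 3.16-fold, the 24th highest. With 6 reads in each WT mock library, the mock fold is imprecise. Leaving out any single library gave 2.56 to 2.86 in mock PMs and a wider range, 1.22 to 2.12, after LPS. Across the 8 input libraries the log2 levels of the 2 genes had a Pearson correlation of −0.51, in which the same 4 groups set most of the spread and depth is shared.

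**Figure D1:**
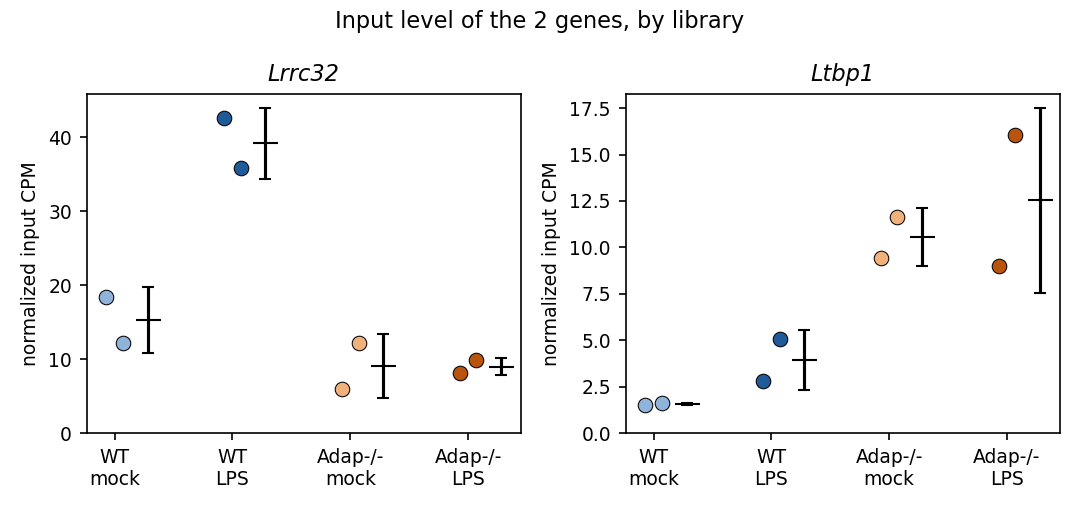
Normalized input CPM (vertical axis, from 0) of Lrrc32 and Ltbp1 in WT and Adap-/- PMs, mock or LPS. Each point is 1 library, and the bar beside it is the mean ± SD of the 2 replicates. Lrrc32 stands at 42.6 and 35.8 in WT LPS PMs and below 20 elsewhere, while Ltbp1 is at or above 9.02 in all Adap-/- libraries and at or below 5.06 in all WT libraries.

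The LPS response averaged over the 2 genotypes does not use the genotype difference and was tested. Lrrc32 rose with LPS by 0.66 ± 0.22 (SE) on the log2 scale, with an adjusted p of 0.0152 (edgeR's quasi-likelihood test, Benjamini-Hochberg over 4742 genes). Ltbp1 had a value of 0.74 ± 0.33 (SE) and an adjusted p of 0.0571, which missed the threshold. One of the 2 genes was thus called higher, where 32.8% of all genes tested were called higher and 33.5% lower. The Lrrc32 call was lost with upper-quartile scaling (0.38, adjusted p = 0.135), which moves the median LPS response of all genes by −0.28. It was also lost without Adap-/- LPS replicate 2 (0.60, adjusted p = 0.0558), Adap-/- mock replicate 1 (0.44, adjusted p = 0.0784) or WT mock replicate 2 (0.51, adjusted p = 0.0540). Ltbp1 passed the threshold when blocked on replicate number (0.75, adjusted p = 0.0365), without Adap-/- LPS replicate 1 (0.94, adjusted p = 0.0179) and without WT LPS replicate 1 (0.94, adjusted p = 0.0355).

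Within WT PMs the log2 LPS response was 1.36 ± 0.26 (SE) for Lrrc32 and 1.27 ± 0.57 (SE) for Ltbp1. Within Adap-/- PMs it was −0.04 ± 0.35 (SE) for Lrrc32 and 0.21 ± 0.33 (SE) for Ltbp1. The difference between these responses, Adap-/- minus WT, was −1.39 ± 0.44 (SE) for Lrrc32 and −1.06 ± 0.66 (SE) for Ltbp1. These values share their counts with the selection and are not tested.

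Markers of other cell types were read beside these values, because fewer cells of a type and less RNA per cell cannot be told apart in bulk RNA. None of 10 markers of regulatory and other T cells and none of 7 of platelets and megakaryocytes, the cells from which LRRC32 is best known, had a listed peak, so no level can be given. The same was true of 6 B cell, 6 mast cell and 5 eosinophil markers. Of 12 fibroblast and mesothelial markers, 3 had a peak (Pdgfra, Pdgfrb and Lrrn4). Their sum was 126 to 146 CPM in Adap-/- LPS, 69.3 to 98 in WT LPS, 44.9 to 71.6 in Adap-/- mock and 35.8 to 59.5 CPM in WT mock PMs. Pdgfrb, a receptor of pericytes and fibroblasts, was higher in Adap-/- than in WT PMs after LPS (log2 1.46, adjusted p = 0.000369) and had a value of 0.20 in mock (adjusted p = 0.828). Pdgfra (0.12, adjusted p = 0.834) and Lrrn4 (0.60, adjusted p = 0.464) did not pass the test after LPS. In mock they did not pass it either (adjusted p = 0.841 and 0.188). Cdh5 and Kdr, 2 of 7 endothelial markers, summed to 9.02 to 9.48 CPM in Adap-/- LPS, 6.15 to 7.77 in WT LPS, 2.67 to 2.89 in Adap-/- mock and 0.808 to 2.56 in WT mock PMs. Csf3r, the only 1 of 8 neutrophil markers with a peak, was at 369 to 387, 306 to 369, 163 to 164 and 123 to 137 CPM in the same order. The part of these cells in the Ltbp1 and Lrrc32 values was not tested.

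On each peak, input and IP reads were then set side by side, on a CPM scale normalized over all 16 libraries that cannot be compared with the gene levels above. The genotype difference had the same direction in IP as in input on all 4 peaks. Input and IP were divided from the same RNA, so the shared direction is no separate support. On the Ltbp1 stop codon peak, IP was 5.15 and 5.11 CPM in WT mock, 8.74 and 8.75 in WT LPS, 13.7 and 26.2 in Adap-/- mock and 11 and 22.5 CPM in Adap-/- LPS PMs. All 4 Adap-/- IP libraries lay above all 4 WT IP libraries. The IP difference between Adap-/- and WT PMs was 1.95 ± 0.45 (SE) on the log2 scale in mock and 0.93 ± 0.43 (SE) after LPS.

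On the upstream CDS peak of Lrrc32, IP was 18.1 and 18.3 CPM in WT LPS and 3.38 and 5.12 CPM in Adap-/- LPS PMs. It was 3.34 and 6.92 CPM in WT mock and 3.50 and 3.76 CPM in Adap-/- mock PMs. The WT LPS libraries stood apart and the mock groups overlapped, as in input. On the downstream CDS peak, IP was 29.6 and 32.6 CPM in WT LPS, 8.63 and 7.15 in Adap-/- LPS, 4.25 and 13.1 in WT mock and 6.90 and 8.20 CPM in Adap-/- mock PMs. The 3'UTR peak had 12.5 and 14.7 CPM in WT LPS, 1.67 and 7.33 in Adap-/- LPS, 15.6 and 3.92 in WT mock and 2.8 and 3.76 CPM in Adap-/- mock PMs. WT mock IP replicate 1, one of the libraries that went against its label, gave the lowest downstream CDS value and the highest 3'UTR value of the 8 IP libraries. After LPS the Adap-/- to WT difference in IP was −2.10 ± 0.47, −1.97 ± 0.48 and −1.62 ± 0.77 (log2, SE) on the 3 peaks in order. In mock PMs it was −0.52 ± 0.47, −0.23 ± 0.47 and −1.56 ± 0.78. These mock values include the libraries that went against their label. The last of them rests on WT mock values of 15.6 CPM in replicate 1 and 3.92 CPM in replicate 2.

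**Figure D2:**
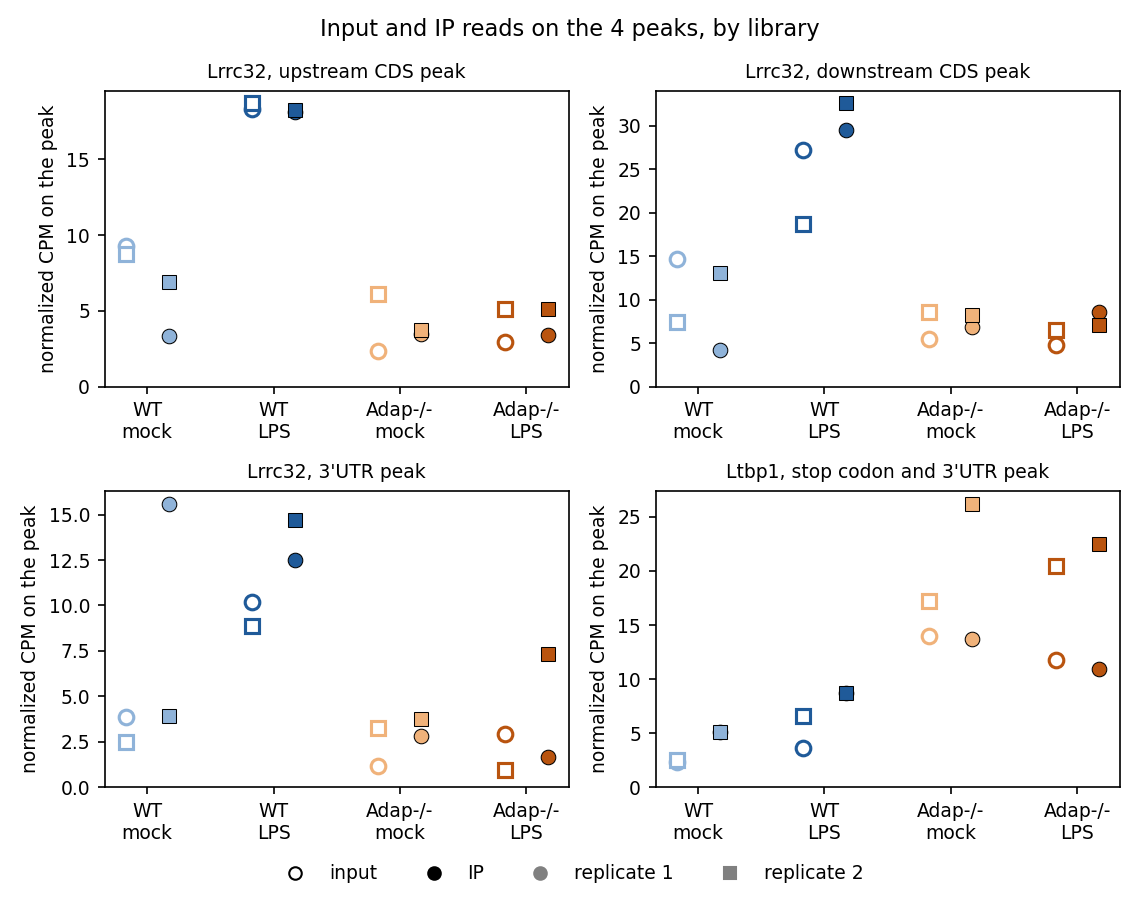
Normalized CPM on each of the 4 peaks (vertical axis, from 0), in input (open) and IP (filled) libraries of WT and Adap-/- PMs, with circles for replicate 1 and squares for replicate 2. On the 2 CDS peaks of Lrrc32 the WT LPS libraries are highest in both assays, and on the Ltbp1 peak all Adap-/- libraries lie above the WT ones in both assays. The lone WT mock circle at 15.6 on the Lrrc32 3'UTR peak is IP replicate 1.

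Set against peak length, the input level of the Ltbp1 peak was 31.0 to 272 CPM per kb over the 8 libraries, with a median of 122. The Lrrc32 peaks, in transcript order, ranged from 23.3 to 187 (median 74.2), 17.4 to 99.1 (median 29.3) and 7.42 to 81.3 CPM per kb (median 24.7). The 3 Lrrc32 peaks thus differed in median although they come from 1 gene. The 4 peaks are 75 to 275 bases long and the fragments about 100 nt, which limits comparisons per length.

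The m6A level was taken as the IP-to-input ratio of CPM, which is relative to all peaks and is not the share of methylated transcripts. On the Ltbp1 peak it was 2.21 and 2.05 in WT mock, 2.39 and 1.34 in WT LPS, 0.981 and 1.52 in Adap-/- mock and 0.928 and 1.10 in Adap-/- LPS PMs. After LPS both Adap-/- ratios were below both WT ratios, and the same was so in mock. With the input of the other replicate, the ratios after LPS overlapped, at 1.33 and 2.39 in WT and 0.537 and 1.91 in Adap-/- PMs. Those in mock stayed apart. The genotype difference of the log2 ratio was −0.73 ± 0.67 (SE) after LPS and −0.74 ± 0.71 (SE) in mock PMs, so each was close to its error. It shares its input counts with the selection and was not tested. Without the 2 mock IP libraries that went against their label, the mock value was −1.25 ± 0.80 (SE).

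The ratios of Lrrc32 scattered more. On the upstream CDS peak they were 0.360 and 0.793 in WT mock, 0.989 and 0.976 in WT LPS, 1.5 and 0.616 in Adap-/- mock and 1.15 and 1.00 in Adap-/- LPS PMs. On the downstream CDS peak they were 0.288 and 1.75, 1.08 and 1.74, 1.27 and 0.950, and 1.80 and 1.10 in the same order. On the 3'UTR peak they were 4.02 and 1.57, 1.23 and 1.66, 2.41 and 1.16, and 0.565 and 7.89. The last pair, from Adap-/- LPS PMs, rests on 8 and 2 input reads. Apart from the upstream CDS peak after LPS, where both Adap-/- ratios were above both WT ratios, the genotype ranges overlapped on every Lrrc32 peak in both conditions. With the input of the other replicate, the ratios of that peak after LPS overlapped too, at 0.966 and 0.998 in WT and 0.663 and 1.73 in Adap-/- PMs. The genotype difference of the log2 ratio was 0.11 ± 0.70, 0.06 ± 0.70 and 0.63 ± 1.20 (SE) after LPS and 0.57 ± 0.71, 0.43 ± 0.72 and −1.04 ± 1.25 (SE) in mock PMs, none larger than its SE. Without the 2 mock IP libraries, the mock values were 0.12 ± 0.77, −0.24 ± 0.62 and 0.06 ± 1.28 (SE).

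**Figure D3:**
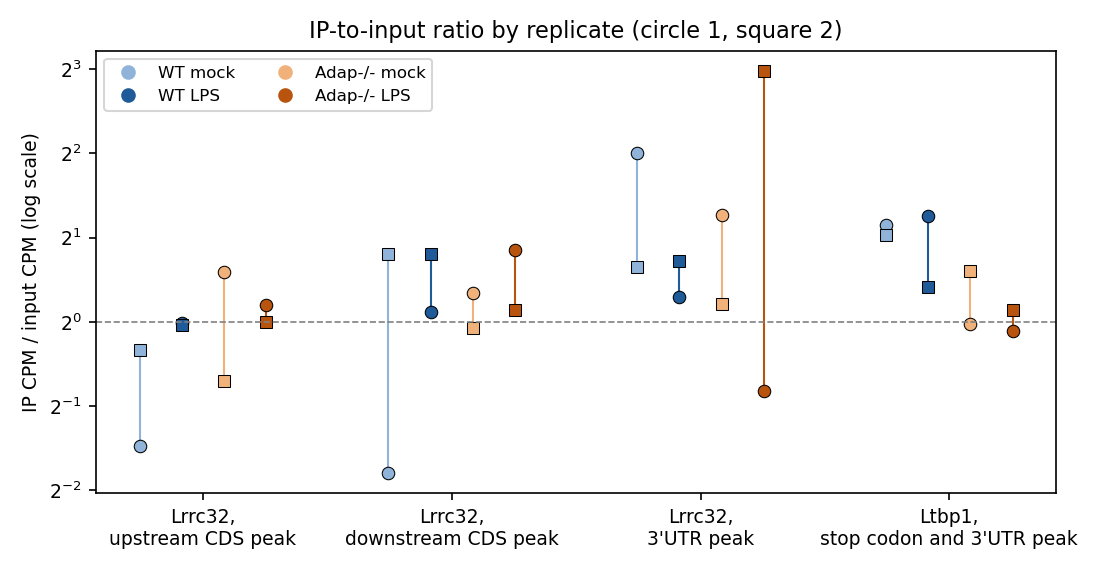
IP-to-input ratio of normalized CPM (log scale) on the 4 peaks, by group, with circles for replicate 1, squares for replicate 2 and a line joining them. The dashed line marks equal IP and input CPM. Replicates are close on the Ltbp1 peak in WT mock PMs (2.21 and 2.05) and far apart on the Lrrc32 3'UTR peak in Adap-/- LPS PMs (0.565 and 7.89).

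Whether LPS changed the m6A ratio, averaged over genotypes, was tested on each peak. The log2 change was −0.29 ± 0.49 (SE) on the Ltbp1 peak (adjusted p = 0.808). On the Lrrc32 peaks in transcript order it was 0.54 ± 0.50 (adjusted p = 0.636), 0.59 ± 0.51 (adjusted p = 0.607) and −0.24 ± 0.87 (adjusted p = 0.926). None of the 4 peaks passed edgeR's test, and none had an unadjusted p below 0.05, where 0.581% of all 7058 peaks tested were called higher and 1.56% lower. DESeq2 also called none of the 4. Without the 2 mock IP libraries that went against their label, the 4 values were −0.07, 0.31, 0.32 and 0.46, so that of the 3'UTR peak changed sign.

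Averaged over the 4 groups, the log2 IP-to-input ratio against the average peak was 0.57 ± 0.24 (SE) on the Ltbp1 stop codon peak (adjusted p = 0.0666). For Lrrc32 it was −0.24 ± 0.25 on the upstream CDS peak (adjusted p = 0.429), 0.17 ± 0.25 on the downstream CDS peak (adjusted p = 0.588) and 0.95 ± 0.43 on the 3'UTR peak (adjusted p = 0.0830). No peak was called, where 28.4% of all peaks were called higher and 26.3% lower. At an unadjusted p below 0.05, 1 of the 4 peaks, that of Ltbp1, was higher. The share of all peaks at that threshold was not computed, but it cannot be below the 28.4% called higher. The zero of this scale depends on the scaling. With IP and input libraries scaled apart, the values were 1.07 on the Ltbp1 peak (adjusted p = 0.00239) and 0.26, 0.68 and 1.45 on the Lrrc32 peaks (adjusted p = 0.369, 0.0353 and 0.0116), which turns the direction of the upstream CDS peak. Blocking on the replicate number also led to a call of the Ltbp1 peak (0.56, adjusted p = 0.0297). Leaving out the mock IP libraries that went against their label gave 0.45 on the Ltbp1 peak. On the Lrrc32 peaks in transcript order it gave −0.14, 0.29 and 0.58. Without Adap-/- LPS replicate 1, both the Ltbp1 peak (0.60, adjusted p = 0.0486) and the Lrrc32 3'UTR peak (1.41, adjusted p = 0.0239) were called.

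The rest of the TGF-beta pathway was read from 7 lists of 82 genes, of which 38 had a peak and were tested. After LPS, 2 of the 38 were higher in Adap-/- than in WT PMs and 4 were lower, where 6.03% of all genes were called higher and 9.78% lower. In mock PMs 8 were higher and 4 lower, where 8.71% of all genes were called higher and 8.65% lower. The median log2 difference was 0.06 after LPS and 0.12 in mock, against −0.01 and 0.01 over all genes. With LPS, 22 rose and 11 fell, where 32.8% of all genes were called higher and 33.5% lower, and the median was 0.40 against −0.04 over all genes. Upper-quartile scaling gave 17 higher and 14 lower with LPS. The genotype counts after LPS were 0 higher without Adap-/- LPS replicate 2 or WT LPS replicate 1, 4 higher without either WT mock replicate, 1 lower without either Adap-/- LPS replicate and 2 lower without either WT LPS replicate. Without Adap-/- mock replicate 2 the mock counts were 3 higher and 1 lower, and without WT mock replicate 2 there were 5 higher.

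Neither measured ligand passed the test between genotypes. Tgfb1, the main ligand of immune cells, was at 438 ± 29.4 CPM in WT mock and 510 ± 6.93 CPM in Adap-/- mock PMs (SD, n = 2), and at 511 ± 32.5 and 559 ± 1.30 CPM after LPS. Its log2 genotype difference was 0.22 in mock (adjusted p = 0.124) and 0.13 after LPS (adjusted p = 0.400). Tgfb2 was low, at 2.2 to 5.15 CPM as group means, with 1.25 ± 0.48 (SE) after LPS (adjusted p = 0.0925). Tgfb1 rose with LPS by 0.18 (adjusted p = 0.0280), which turned to −0.11 with upper-quartile scaling (adjusted p = 0.178), and the call was lost without any 1 of 6 of the 8 libraries.

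Among the other latency and storage genes, Nrros, a relative of Lrrc32, did not pass the test between genotypes. Nrros was at 1542 ± 30.1 CPM in WT mock, 1451 ± 26.8 in Adap-/- mock, 701 ± 68.1 in WT LPS and 591 ± 42.5 CPM in Adap-/- LPS PMs (SD, n = 2). Its log2 genotype difference was −0.09 in mock (adjusted p = 0.609) and −0.24 after LPS (adjusted p = 0.137). LPS lowered Nrros by 1.22 on the log2 scale (adjusted p = 3.2e-10). The LPS response of Lrrc32 averaged over genotypes had the opposite sign, with 1.36 in WT and −0.04 in Adap-/- PMs. Emilin1, an extracellular glycoprotein that restrains pro-TGF-beta processing, was higher in Adap-/- mock PMs (log2 0.44, adjusted p = 0.0423). Tgfb3, Ltbp2, Ltbp3 and Ltbp4 had no listed peak and were not analysed here.

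Of the 8 genes that release TGF-beta, Itgb5, the beta chain of an activating integrin, was lower in Adap-/- PMs both in mock (−0.69, adjusted p = 0.00282) and after LPS (−0.66, adjusted p = 0.0136). Ctsd, a lysosomal protease, was also lower in both (−0.47 and −0.45, adjusted p = 0.0160 and 0.0216). In mock PMs alone the test was passed by Thbs1, the thrombospondin that activates latent TGF-beta (0.77, adjusted p = 0.0103), and by Mmp14, a membrane protease (0.62, adjusted p = 0.00187), and both were higher in Adap-/- PMs. With LPS, Thbs1 rose by 1.91 (adjusted p = 1.07e-09) and Furin, the convertase that cleaves the propeptide, by 1.83 (adjusted p = 4.08e-13). Itgb5 fell by 1.73 (adjusted p = 4.21e-10). Itgav and Itgb8, the chains of the integrin that acts on tethered TGF-beta, had no listed peak.

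No receptor passed the test between genotypes after LPS, and Acvr1b, an activin receptor, was higher in Adap-/- mock PMs (0.46, adjusted p = 0.0311). All 5 receptor genes measured (Eng, Acvr1, Acvr1b, Acvr2a and Bmpr2) rose with LPS, where 32.8% of all genes did, and Eng had 2.23 (adjusted p = 9.08e-12). Tgfbr1, Tgfbr2 and Tgfbr3 had no listed peak. Of the SMAD transducers, the coactivators Crebbp (0.61, adjusted p = 0.0043) and Ep300 (0.46, adjusted p = 0.0185) were higher in Adap-/- mock PMs. Smad2 (0.51, adjusted p = 0.000839) and Smad4 (0.26, adjusted p = 0.0355) rose with LPS. The Smad4 call was lost with DESeq2 (adjusted p = 0.0928), with upper-quartile scaling (−0.02) and without any 1 of 5 of the 8 libraries.

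Among inhibitors of the pathway, the SMAD corepressor Ski was higher in Adap-/- PMs after LPS (0.53, adjusted p = 0.00488) and its relative Skil in mock (0.67, adjusted p = 0.00388). The Ski call between genotypes was lost without Adap-/- LPS replicate 2 or WT LPS replicate 1. Bambi, a decoy receptor, was lower in Adap-/- mock PMs (−1.21, adjusted p = 0.0495). With LPS, Pmepa1 rose by 2.91 (adjusted p = 7.03e-10) while Ski fell by 1.47 (adjusted p = 3.33e-11).

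Of the 9 target genes, Tgfbi, a matrix protein named for its induction by TGF-beta, was higher in Adap-/- mock PMs (1.52, adjusted p = 7.9e-05), with 0.47 after LPS (adjusted p = 0.431). Gadd45b, a stress-response gene, was lower in mock (−0.59, adjusted p = 0.00184) and after LPS (−0.52, adjusted p = 0.00333), and Tsc22d1 was lower after LPS (−0.56, adjusted p = 0.0335). The transcription factor Bhlhe40 was higher after LPS (0.48, adjusted p = 0.00818), a call lost without Adap-/- LPS replicate 2 or WT LPS replicate 1. With LPS, Cdkn1a rose by 2.94 and Tsc22d1 by 2.05, and Tgfbi fell by 2.76 (adjusted p = 8.93e-14, 7.31e-10 and 8.92e-10).

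The difference of the LPS responses between genotypes passed edgeR's test in none of the 38 genes, where 0.358% of all genes were called higher and 1.29% lower. At an unadjusted p below 0.05 there were 6 of the 38, where 12.7% of all genes were below it, and DESeq2 called none of the 38.

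**Figure D4:**
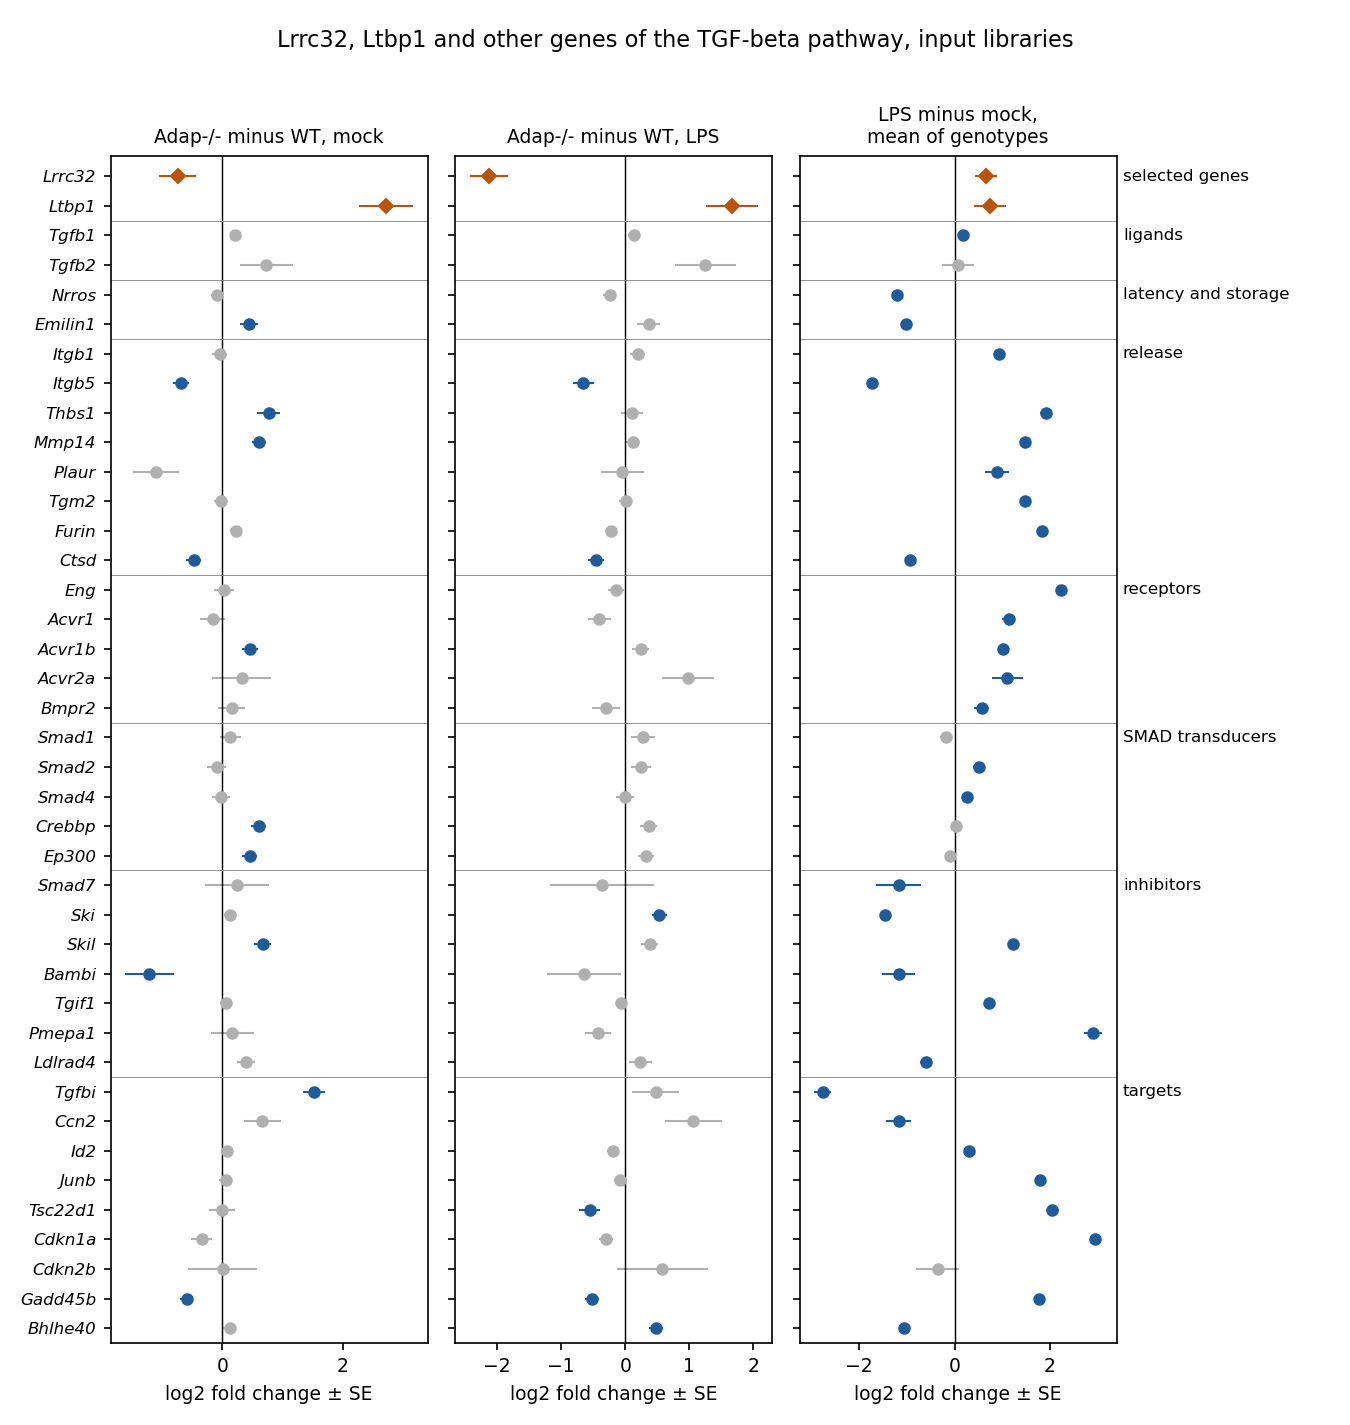
Log2 fold change ± SE (horizontal axes, which differ in range) in input of Lrrc32 and Ltbp1 (orange diamonds) and of 38 other genes of the TGF-beta pathway, grouped by list, for Adap-/- minus WT in mock, Adap-/- minus WT after LPS, and LPS minus mock averaged over genotypes. Blue points had an adjusted p below 0.05 and grey points did not, and the diamonds carry no call. Ltbp1 at 2.72 in mock and Lrrc32 at −2.13 after LPS lie beyond the other genes of these lists. The 2 genes were selected on their genotype difference, so their place there is no result.

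The genes whose log2 input level followed each of the 2 genes most closely over the 8 input libraries were named by Pearson correlation, as a description. For Lrrc32 these were Taok3 (0.94), Hipk2 (0.93), Afg3l2 (0.92), Nbn (0.92) and B3gnt5 (0.92). Of these, B3gnt5 had the largest genotype difference after LPS, −1.62 on the log2 scale, and the other 4 lay between −0.63 and −0.29. For Ltbp1 they were Smg1 (0.97), Kmt2d (0.97), Srrm2 (0.96), Osbpl3 (0.96) and Cmklr1 (0.96), with genotype differences in mock PMs of 0.66 to 1.38. All 10 of these differences were smaller in size than that of the gene they followed, which had been selected on its difference. The libraries compared are the same 4 groups throughout.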

How the data were processed

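The authors deposited a table of raw read counts on merged m6A peaks for 16 libraries, with the gene and region of each peak. The submitters' processing notes name Bowtie2 2.2.8, MACS2 2.1.2, DiffBind 2.8 and GRCm39, without their roles. Whether peak starts count from 0 or 1 is not given in the sources used here. The design had assumed counts per gene, so the input counts of a gene's peaks were summed. Transcripts without a peak are therefore missing, and a gene level is that of its peak regions. The quasi-likelihood test of edgeR 4.0.16 (R 4.3.3) was used with TMM scaling, after filterByExpr (at least 10 reads in a group's worth of libraries and 15 in all). Benjamini-Hochberg adjusted p-values below 0.05 were called. The 8 input libraries were fitted with 1 mean per group over 4742 genes (201 left out), and all 16 libraries with 8 means over 7058 peaks. The spread between replicates beyond that of read counting, as a coefficient common to all genes or peaks, was 8.82% (genes) and 30.6% (peaks). Correlations used log2 CPM with a prior count of 2. DESeq2 1.42.0, other scalings, filters, blocks and left-out libraries were alternatives. The tests were checked on simulated counts. Changes were placed there only on genes with a higher mean count than Ltbp1 input. The peaks used had higher mean counts than the upstream CDS and 3'UTR peaks of Lrrc32.

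Lrrc32, Ltbp1 and the gene lists were chosen with earlier results of these data known. Named were both genes, 12 preset pathway genes where a peak exists, up to 3 genes per list and comparison with the largest change among those past the threshold, and the 5 genes most correlated with each. Bmpr2 and marker genes were named after their values were seen. One gene of the lists is not reported here. The symbol Ctsd is carried by 2 gene IDs and was given to the ID with more peaks after results were seen, which adds 1 lower gene to the pathway counts of both genotype comparisons and of LPS. The labels do not say whether replicates came from separate mice or cultures, so p-values measure the spread between these samples. PCR duplicates were not marked by molecular identifiers. Replicate numbers were checked for pairing: deviations of input replicates correlated by −0.0843 to 0.128 between groups (5565 peaks), so groups share only a number. Within a group, IP and input deviations correlated by 0.0663 to 0.144, but by −0.184 in WT mock.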

Additional observations from a re-analysis of the deposited data

How the results depend on the processing

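With 2 replicates per group and as few as 2 input reads on a Lrrc32 peak, the m6A ratios are limited by depth, and a missed threshold does not show that values were equal. The causes of the changes below were not tested. The LPS response of Lrrc32 was 0.38 with upper-quartile scaling and 0.44 to 0.94 without 1 library, and that of Ltbp1 was 0.75 with the replicate block and 0.51 to 0.94 without 1 library. Without 1 library the mock genotype difference was −1.33 to −0.33 for Lrrc32 and 2.56 to 2.86 for Ltbp1. The difference after LPS was then −2.26 to −1.99 for Lrrc32 and 1.22 to 2.12 for Ltbp1. The pathway counts then ranged from 0 to 4 higher and 1 to 4 lower after LPS, and from 3 to 8 higher and 1 to 5 lower in mock. For the difference of the LPS responses they ranged from 0 to 1 higher, the 1 being Bhlhe40 without WT mock replicate 2, and were 0 lower throughout.

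Against the average peak, scaling IP and input apart gave 0.26, 0.68 and 1.45 on the Lrrc32 peaks and 1.07 on the Ltbp1 peak. The Ltbp1 value was 0.56 with the replicate block and 0.55 with the RNA sample as the block, and again 0.55 with the WT mock IP numbers crossed, a pairing added after seeing the data. Without 1 replicate it was 0.48 to 0.69, and the Lrrc32 peaks had −0.41 to −0.03, −0.20 to 0.47 and 0.46 to 1.41. Without 1 replicate the LPS effect on the ratio was −0.48 to −0.06 on the Ltbp1 peak and 0.09 to 0.85, 0.04 to 1.29 and −1.22 to 0.69 on the Lrrc32 peaks, and the last of these was 0.46 without the 2 mock IP libraries that went against their label, an alternative also added after seeing the data. That setting gave a mock genotype difference of the ratio of 0.060 on this peak and −1.25 on the Ltbp1 peak. Without 1 replicate the ratio's genotype difference after LPS was 0.027 to 0.22, −0.31 to 0.41 and −1.33 to 2.44 on the Lrrc32 peaks and −1.20 to −0.36 on the Ltbp1 peak. In mock it was 0.11 to 1.40 on the upstream CDS peak, −0.71 to 1.91 on the downstream CDS peak, −1.43 to −0.093 on the 3'UTR peak and −1.09 to −0.44 on the Ltbp1 peak.

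Of 599 values of other named genes under the alternatives, 540 kept their direction and their side of the threshold, 45 were no longer past it without 1 library and 8 with other settings, and the rest changed sign. Upper-quartile scaling turned the LPS values of Tgfb1 to −0.11, Smad4 to −0.024 and Tgfb2 to −0.21, and Tgfb2 ranged from −0.073 to 0.19 without 1 library, below 0 without Adap-/- LPS replicate 1, WT LPS replicate 2 or WT mock replicate 1. The replicate block changed no other call of the 2 genes or their peaks.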
